A study of Mus musculus with 19 samples.

Results

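The integrated stress response genes driven by the transcription factor ATF4 were followed in the hippocampus of APP/PS1 mice given urolithin A (UA). They were 10 genes, Atf4, Atf5, Ddit3, Trib3, Asns, Psat1, Phgdh, Chac1, Ddit4 and Sesn2, of 25603 genes tested. A probe was taken as a member's when its accession belonged to a RefSeq transcript of that gene. All 10 members had a probe, 14 probes in all, and each of the 14 was well above background on all 19 arrays with none saturated, so no member was lost to a filter on dim signals.

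The 3 groups were APP/PS1 mice given UA at 200 mg per kg per day in DMSO by gavage (n = 6), APP/PS1 mice given DMSO vehicle (n = 7) and wild-type (WT) littermates given vehicle (n = 6). Dosing ran from 6 to 8 months of age, and hippocampi were taken at 8 months. APP/PS1 mice carry mutant APP and presenilin 1 transgenes that the prion protein promoter drives, deposit amyloid in the brain, and serve as a model of amyloid deposition. UA is a compound that gut bacteria form from ellagitannins of the diet, and no WT mice on UA were analysed here. Each array held Cy3-labelled cRNA of 1 sample, and since the study gives as many mice per group as there are arrays, 1 array was taken as 1 mouse.

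In the integrated stress response, kinases that sense amino acid shortage, unfolded protein, viral RNA or haem shortage phosphorylate the translation factor eIF2alpha. General translation then falls while Atf4 mRNA is translated more, so that ATF4 protein can increase without more Atf4 mRNA. ATF4 pairs with C/EBP proteins at composite sites in its target genes, many of which make, import or charge amino acids. In brain the pathway is known for its role in memory formation and for its activation in models of protein misfolding.

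The C/EBP-ATF composite site is commonly written TGATGNAA. On either strand, those letters stood in 3.97% of 32851 RefSeq mouse promoters (GRCm38.p6, 250 bases before to 50 after each start) and in the promoters of 3 of the 10 members, Asns, Trib3 and Chac1. The 10 members were matched by symbol to 12 promoters. The 3 promoters are printed because Asns and Chac1 went up and down together by Pearson r over all 19 arrays (below). Trib3 holds the same letters. They are given 5′ to 3′ on each gene's strand, with the match in capitals. Asns lies at chr6:7693160-7693459 (minus strand), Trib3 at chr2:152344011-152344310 (minus strand) and Chac1 at chr2:119350992-119351291 (plus strand).
Asns: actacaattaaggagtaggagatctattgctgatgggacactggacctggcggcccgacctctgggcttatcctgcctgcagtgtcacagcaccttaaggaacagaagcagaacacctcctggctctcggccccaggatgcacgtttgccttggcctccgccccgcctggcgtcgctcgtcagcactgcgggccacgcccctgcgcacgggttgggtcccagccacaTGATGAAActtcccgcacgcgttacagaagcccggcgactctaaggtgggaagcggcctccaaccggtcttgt
Trib3: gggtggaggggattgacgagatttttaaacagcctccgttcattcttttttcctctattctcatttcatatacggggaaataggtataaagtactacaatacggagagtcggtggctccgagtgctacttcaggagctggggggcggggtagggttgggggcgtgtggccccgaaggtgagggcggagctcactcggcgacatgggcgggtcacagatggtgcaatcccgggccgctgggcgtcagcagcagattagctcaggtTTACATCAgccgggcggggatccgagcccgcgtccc
Chac1: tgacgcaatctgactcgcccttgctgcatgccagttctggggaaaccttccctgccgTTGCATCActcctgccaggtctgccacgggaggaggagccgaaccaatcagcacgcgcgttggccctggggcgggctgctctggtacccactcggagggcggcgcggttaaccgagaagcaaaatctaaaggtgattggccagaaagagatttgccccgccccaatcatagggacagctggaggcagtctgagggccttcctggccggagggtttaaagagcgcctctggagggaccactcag
The match ran from base -23 to -16 before the Asns start, from 15 to 22 after the Trib3 start and from -193 to -186 before the Chac1 start, as TGATGAAA, TTACATCA and TTGCATCA. The related letters TGGTGNAA, found in 3.23% of promoters, stood in Trib3 and Psat1, and TGACGNAA, found in 1.59%, stood in Chac1. A match of letters is a description of these windows, and binding was not measured.

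Levels below are the log2 processed signal of the Cy3 channel after subtraction of each array's own 75th percentile, and a difference of 1 is a change of 2-fold. They serve to compare 1 probe between arrays, never 1 probe with another. Differences were tested with limma over all 19 arrays, two-sided. The p-values were adjusted by Benjamini-Hochberg over the whole set of 25603 genes, and the threshold was 0.05. The hippocampus is a mixture of cells, in which fewer cells of a type and less RNA per cell cannot be told apart.

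Over all genes, limma called 5.05% in APP/PS1 vehicle against WT mice (710 genes or 2.77% higher and 584 or 2.28% lower), 0% in UA against vehicle APP/PS1 mice and 0.0898% in UA against WT mice. From the deposited value table the split of the first comparison was 323 higher and 481 lower. Array 75th percentiles ran from 663 to 1776 intensity units. Microglia markers were higher in vehicle APP/PS1 mice than in WT mice for 10 of 12 genes, and astrocyte markers for 3 of 9. Slide 1 held 2 vehicle APP/PS1 and all 6 WT arrays, slide 2 held 3 UA and 5 vehicle arrays, and slide 3 held 3 UA arrays, so that UA and WT mice shared no slide. The mean of 10 hippocampus markers was 1.53 ± 0.25 in UA mice, 1.57 ± 0.24 in vehicle APP/PS1 mice and 1.54 ± 0.10 in WT mice (SD, n = 6, 7 and 6). The choroid plexus is a secretory tissue that lies beside the hippocampus. The mean level of 12 of its markers split the arrays into 10 with high levels (1.57 to 3.31; 4 UA, 5 vehicle and 1 WT) and 9 with low levels (-4.83 to -1.14; 2 UA, 2 vehicle and 5 WT). They are called choroid-rich and choroid-poor arrays below.

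None of the 10 members passed in any of the 3 comparisons. Non-overlapping groups were seen for 0 members in UA against vehicle mice (0.844% of all genes), 1 in UA against WT mice (1.06%) and 0 in vehicle APP/PS1 against WT mice (2.31%). At an unadjusted limma p under 0.05 there were 0 members in UA against vehicle APP/PS1 mice (15.4% of all genes), 3 in UA against WT mice (Atf4, Asns and Ddit4; 8.66% of all genes) and 2 in vehicle APP/PS1 against WT mice (Asns and Phgdh; 23.7% of all genes). The median difference of the 10 members was -0.08, 0.02 and 0.00 in those comparisons, against -0.01, -0.01 and 0.01 over all genes tested. In vehicle APP/PS1 against WT mice 5 lay above 0 and 5 below. Each member stood by its brightest probe here. By the second Psat1 probe the unadjusted limma p was 0.00622 in UA against vehicle mice and 0.0246 in vehicle APP/PS1 against WT mice.

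**Figure D1:**
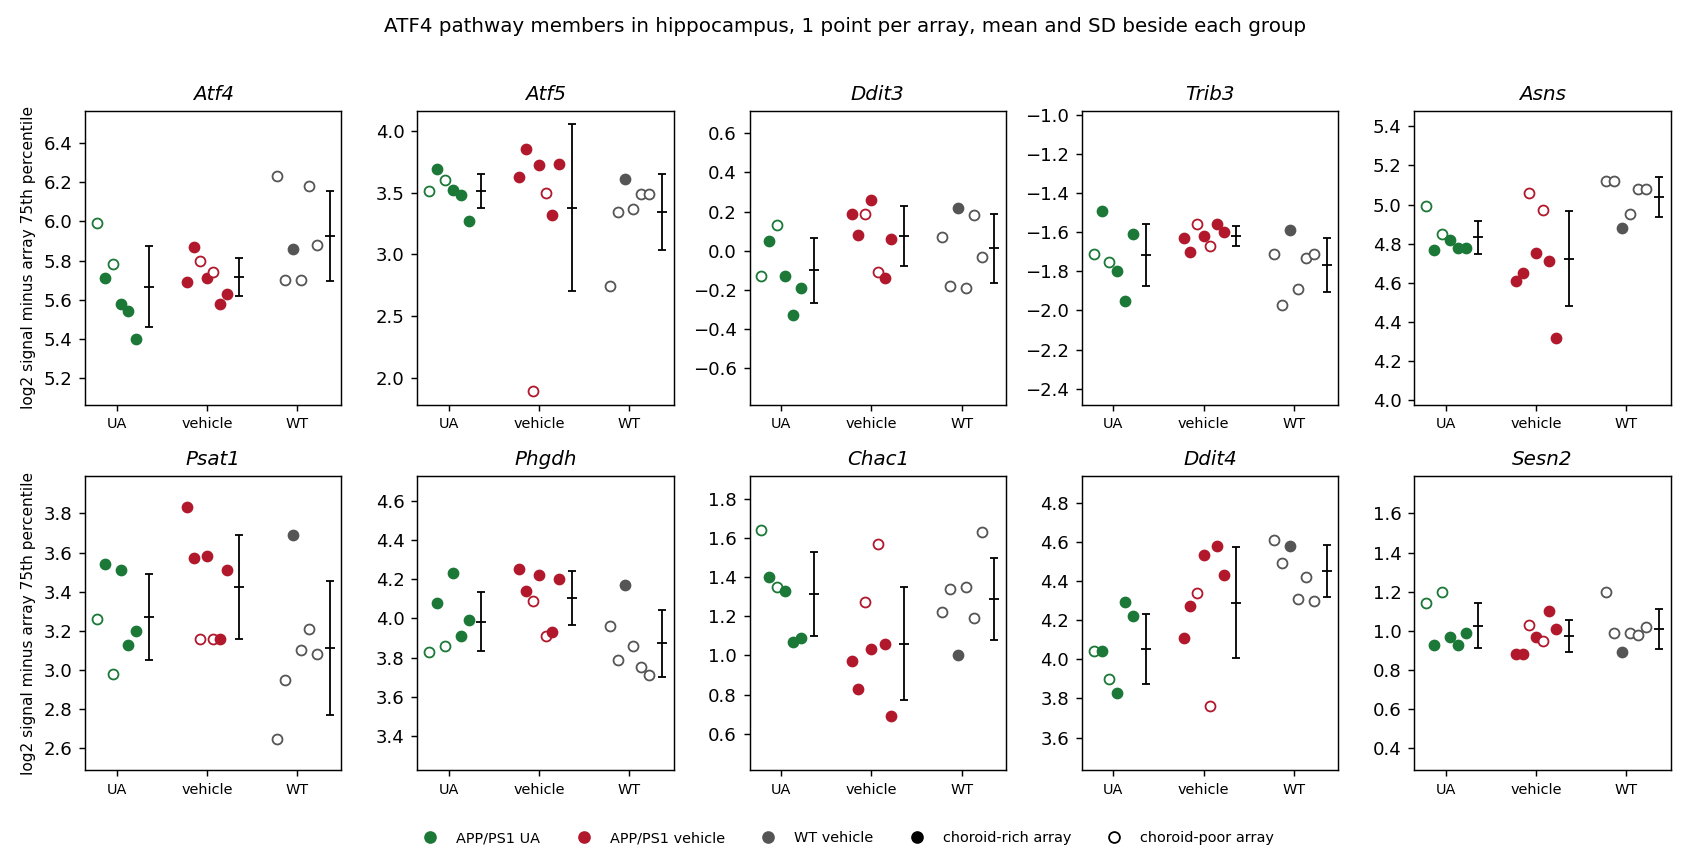
Levels of the 10 members (y axis, log2 signal minus the array's 75th percentile) on each of 19 arrays in APP/PS1 UA, APP/PS1 vehicle and WT vehicle mice (x axis); filled points are choroid-rich and open points choroid-poor arrays, and the bars beside them are mean and SD. Ddit4 is the member with all 6 UA arrays (3.83 to 4.29) below all 6 WT arrays (4.30 to 4.61); in the other panels the 3 groups overlap.

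Among the transcription factors, Atf4 itself is the effector of the pathway. The lowest, median and highest Atf4 levels were 5.40, 5.64 and 5.99 in UA mice, 5.58, 5.71 and 5.87 in vehicle APP/PS1 mice and 5.70, 5.87 and 6.23 in WT mice. The 3 ranges overlapped, with 3 UA and 3 vehicle arrays below every WT array. Atf4 differed by -0.05 (SE 0.10) between UA and vehicle APP/PS1 mice, by -0.26 (SE 0.11; limma adjusted p = 0.523) between UA and WT mice and by -0.21 (SE 0.10; limma adjusted p = 0.225) between vehicle APP/PS1 and WT mice. A second Atf4 probe, whose levels did not follow the first over the 19 arrays (r = -0.118), gave differences of -0.05, -0.05 and -0.00 in the same order. With slide as a block, or within slide 2, the difference between UA and vehicle mice was 0.13 in place of -0.05.

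Atf5 encodes a related bZIP factor whose mRNA is also translated under eIF2alpha phosphorylation. Its levels were 3.27, 3.51 and 3.69 (lowest, median, highest) in UA mice, 1.89, 3.63 and 3.85 in vehicle APP/PS1 mice and 2.74, 3.43 and 3.61 in WT mice. In each of the vehicle and WT groups 1 array lay far below the rest, and the ranges overlapped. The Atf5 difference was 0.13 (SE 0.24) for UA against vehicle mice, 0.17 (SE 0.25) for UA against WT mice and 0.04 (SE 0.24; limma adjusted p = 0.939) for vehicle APP/PS1 against WT mice. Without the low vehicle array, replicate 3, the last of these was 0.29 (SE 0.13; limma adjusted p = 0.155). The second Atf5 probe gave 0.20 (SE 0.11; limma adjusted p over probes = 0.261) there with no array left out. The difference between vehicle APP/PS1 and WT mice turned to -0.16 with the choroid plexus marker mean as a covariate and to -0.59 within choroid-poor arrays (limma adjusted p = 0.683 and 0.528), it was as low as -0.08 when other arrays were left out in turn, and it was 0.40 with slide as a block.

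Ddit3 encodes CHOP, a C/EBP-family factor that ATF4 induces and that promotes cell death under lasting stress. Ddit3 levels were -0.33, -0.13 and 0.13 in UA mice, -0.14, 0.08 and 0.26 in vehicle APP/PS1 mice and -0.19, 0.02 and 0.22 in WT mice. The groups overlapped, with 5 of 6 UA arrays below the vehicle mean. Ddit3 differed by -0.18 (SE 0.09; limma adjusted p = 0.375) between UA and vehicle mice, by -0.11 (SE 0.10) between UA and WT mice and by 0.07 (SE 0.09; limma adjusted p = 0.693) between vehicle APP/PS1 and WT mice.

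Trib3, a pseudokinase induced by ATF4 and CHOP that restrains ATF4 in turn, had levels of -1.95, -1.73 and -1.49 in UA mice, -1.70, -1.62 and -1.56 in vehicle APP/PS1 mice and -1.97, -1.72 and -1.59 in WT mice. All 7 vehicle arrays lay above the WT mean and the ranges overlapped. Trib3 differed by -0.10 (SE 0.07; limma adjusted p = 0.520) for UA against vehicle mice, by 0.05 (SE 0.08) for UA against WT mice and by 0.15 (SE 0.07; limma adjusted p = 0.235) for vehicle APP/PS1 against WT mice.

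Asns, which makes asparagine from aspartate and glutamine and is a classical ATF4 target, came nearest to the threshold. Its levels were 4.77, 4.80 and 4.99 in UA mice, 4.32, 4.71 and 5.06 in vehicle APP/PS1 mice and 4.88, 5.08 and 5.12 in WT mice. Of the vehicle arrays 5 of 7 lay below every WT array, as did 5 of 6 UA arrays, while all 6 UA arrays lay above the vehicle mean. Asns differed by 0.11 (SE 0.10; limma adjusted p = 0.598) between UA and vehicle mice, by -0.21 (SE 0.10; limma adjusted p = 0.574) between UA and WT mice and by -0.31 (SE 0.10, 95% interval -0.51 to -0.12; limma adjusted p = 0.0606) between vehicle APP/PS1 and WT mice. The second Asns probe, which followed the first over the 19 arrays (r = 0.849), gave -0.26 (SE 0.11) for the last comparison.

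The vehicle against WT difference of Asns moved with the choroid plexus markers. It was -0.21 (SE 0.07; limma adjusted p = 0.0697) with the marker mean as a covariate, and -0.05 (SE 0.10; limma adjusted p = 0.826) between the 2 vehicle and 5 WT choroid-poor arrays. Within slide 1, where both vehicle arrays were choroid-rich and 5 of 6 WT arrays choroid-poor, it was -0.41 (SE 0.10; limma adjusted p = 0.133). It passed with quantile normalization (limma adjusted p = 0.0404), without vehicle replicate 3 (0.0216), without vehicle replicate 5 (0.0304) and without WT replicate 3 (0.0406). The 2 vehicle arrays named are the choroid-poor ones of their group, and the WT array is the choroid-rich one of its own.

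Phgdh and Psat1 are the first and second enzymes of serine synthesis, and both are ATF4 targets. Phgdh, which in brain is mainly made by astrocytes, had levels of 3.83, 3.95 and 4.23 in UA mice, 3.91, 4.14 and 4.25 in vehicle APP/PS1 mice and 3.71, 3.83 and 4.17 in WT mice. The ranges overlapped, although all 7 vehicle arrays lay above the WT mean. Phgdh differed by -0.12 (SE 0.09; limma adjusted p = 0.510) for UA against vehicle mice, by 0.11 (SE 0.09) for UA against WT mice and by 0.24 (SE 0.09; limma adjusted p = 0.121) for vehicle APP/PS1 against WT mice. The last passed with sex, read from sex-linked genes, as a covariate (0.28; limma adjusted p = 0.047) and without WT replicate 3 (limma adjusted p = 0.0390). By those genes, 1 of 6 UA, 3 of 7 vehicle APP/PS1 and 1 of 6 WT arrays were female. The Phgdh difference was 0.16 with the choroid plexus marker mean as a covariate and 0.19 within choroid-poor arrays, neither of which passed.

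Psat1 levels were 2.98, 3.23 and 3.54 in UA mice, 3.16, 3.51 and 3.83 in vehicle APP/PS1 mice and 2.65, 3.09 and 3.69 in WT mice. All 7 vehicle arrays lay above the WT mean, and 1 of them above the highest WT array. Psat1 differed by -0.16 (SE 0.15; limma adjusted p = 0.625) for UA against vehicle mice, by 0.15 (SE 0.16) for UA against WT mice and by 0.31 (SE 0.15; limma adjusted p = 0.218) for vehicle APP/PS1 against WT mice. The last value was 0.59 within slide 1 and 0.16 within choroid-poor arrays. The second Psat1 probe gave -0.41 (SE 0.13; limma adjusted p over probes = 0.195) for UA against vehicle mice, from levels of -1.64 to -1.17 in UA mice and -1.45 to -0.68 in vehicle mice, and 0.32 (SE 0.13) for vehicle APP/PS1 against WT mice.

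Chac1, an enzyme that breaks down glutathione and is induced by ATF4, had levels of 1.07, 1.34 and 1.64 in UA mice, 0.69, 1.03 and 1.57 in vehicle APP/PS1 mice and 1.0, 1.28 and 1.63 in WT mice. All 6 UA arrays lay above the vehicle mean of 1.06, and the 3 ranges overlapped. Chac1 differed by 0.25 (SE 0.13, 95% interval -0.03 to 0.53; limma adjusted p = 0.368) between UA and vehicle mice, by 0.03 (SE 0.14) between UA and WT mice and by -0.23 (SE 0.13; limma adjusted p = 0.303) between vehicle APP/PS1 and WT mice. The last value was 0.07 (SE 0.16) within choroid-poor arrays.

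Within the choroid-rich arrays, 4 UA and 5 vehicle, Chac1 ran from 1.07 to 1.40 in UA mice and from 0.69 to 1.06 in vehicle mice. Asns ran from 4.77 to 4.82 in those UA mice and from 4.32 to 4.75 in those vehicle mice. Neither gene's ranges overlapped there, which held for 6.33% of all genes in the same arrays. The differences within these arrays were 0.31 (SE 0.11; limma adjusted p = 0.263) for Chac1 and 0.18 (SE 0.09; limma adjusted p = 0.379) for Asns. The 3 UA arrays of slide 3, which held no vehicle array, are all choroid-rich. Within the choroid-poor arrays, 2 UA and 2 vehicle, both genes' ranges overlapped. Chac1 ran there from 1.35 to 1.64 in UA and from 1.27 to 1.57 in vehicle mice. Asns ran from 4.85 to 4.99 in UA and from 4.97 to 5.06 in vehicle mice, with the lower mean in UA mice.

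Ddit4 (REDD1) and Sesn2 (sestrin 2, a leucine sensor) hold back the growth kinase complex mTORC1. Ddit4 levels were 3.83, 4.04 and 4.29 in UA mice, 3.76, 4.34 and 4.58 in vehicle APP/PS1 mice and 4.30, 4.46 and 4.61 in WT mice. It was the 1 member of 10 whose UA and WT ranges did not overlap, which held for 1.06% of all genes. Ddit4 was -0.40 (SE 0.12, 95% interval -0.65 to -0.14; limma adjusted p = 0.345) in UA against WT mice, so the difference did not pass. It was -0.24 (SE 0.12; limma adjusted p = 0.337) for UA against vehicle mice, with 5 of 6 UA arrays below the vehicle mean, and -0.16 (SE 0.12; limma adjusted p = 0.407) for vehicle APP/PS1 against WT mice. Within choroid-poor arrays the last value was -0.38 (SE 0.17; limma adjusted p = 0.423). UA and WT mice lay on different slides, and with slide as a block the first difference was -0.60 (SE 0.24; limma adjusted p = 0.950).

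Sesn2 varied least of the 10 members across the 19 arrays, over a range of 0.32. Its levels were 0.93, 0.98 and 1.20 in UA mice, 0.88, 0.97 and 1.10 in vehicle APP/PS1 mice and 0.89, 0.99 and 1.20 in WT mice. Sesn2 differed by 0.05 (SE 0.07) for UA against vehicle mice, by 0.02 (SE 0.07) for UA against WT mice and by -0.04 (SE 0.07; limma adjusted p = 0.758) for vehicle APP/PS1 against WT mice. The 95% intervals of these differences reached from -0.08 to 0.19, from -0.13 to 0.16 and from -0.17 to 0.10.

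**Figure D2:**
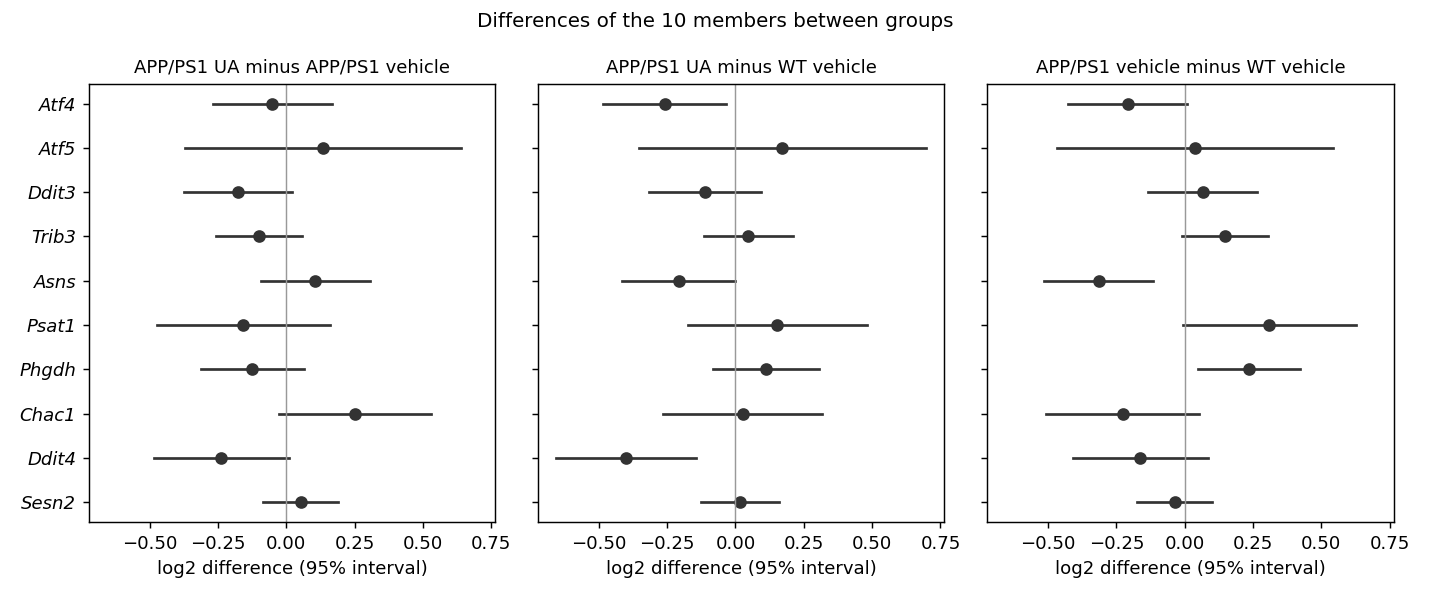
Differences of the 10 members, each by its brightest probe (x axis, log2, with 95% intervals) in APP/PS1 UA minus APP/PS1 vehicle, APP/PS1 UA minus WT vehicle and APP/PS1 vehicle minus WT vehicle mice. The unadjusted intervals leave out 0 for no member in the first panel, for Atf4, Asns and Ddit4 in the second, and for Asns and Phgdh in the third; after adjustment over all genes none passed.

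By group means, Atf4, Ddit4 and Asns were highest in WT mice, Psat1, Phgdh, Ddit3 and Trib3 in vehicle APP/PS1 mice, and Atf5, Chac1 and Sesn2 in UA mice. No neighbours in those orders passed the limma test. UA against vehicle and vehicle against WT share the vehicle arrays, so their signs are not independent of each other.

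Whether members rose and fell together was examined over the 19 arrays with each array set against its own group mean. Of 45 pairs of members, 23 had a positive and 22 a negative Pearson r, with a median of 0.02. A permutation test within groups (100000 resamples, two-sided, Benjamini-Hochberg adjustment over the 45 pairs) passed for 2 pairs by Pearson r. Asns and Chac1 went together, with r = 0.758 (permutation p = 0.00098, adjusted 0.0288) and Spearman's rho = 0.647 (permutation p = 0.00595, adjusted 0.0669). Psat1 and Sesn2 went in opposite directions, with r = -0.732 (permutation p = 0.00128, adjusted 0.0288) and rho = -0.735 (permutation p = 0.00124, adjusted 0.0279). Asns and Chac1 thus did not pass by rho. Atf5 and Psat1 passed by rho = 0.693 (permutation p = 0.00093, adjusted 0.0279) but not by r = 0.547 (permutation p = 0.0121, adjusted 0.108). Psat1 and Phgdh, neighbours in serine synthesis, had r = 0.678 (permutation p = 0.00427, adjusted 0.064) and rho = 0.672 (permutation p = 0.00458, adjusted 0.0669), which did not pass. Trib3, whose promoter holds the same letters as those of Asns and Chac1, had r = -0.0876 with Asns (permutation p = 0.601, adjusted 0.761) and r = -0.0145 with Chac1 (permutation p = 0.951, adjusted 0.951).

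Without the 2 arrays farthest in Asns, r of Asns and Chac1 was 0.756. It was 0.416 on slide 1 (exact permutation p = 0.408, 8 arrays) and 0.89 on slide 2 (exact permutation p = 0.0208, 8 arrays), and 0.639 over the 10 choroid-rich arrays (exact permutation p = 0.0382) and 0.0192 over the 9 choroid-poor ones (exact permutation p = 0.971). The relation thus did not pass within slide 1 or within choroid-poor arrays. With so few arrays this does not show that it was absent. Psat1 and Sesn2 kept r of -0.63 without the 2 arrays farthest in Psat1, -0.869 on slide 1 and -0.696 on slide 2 (exact permutation p = 0.0444 and 0.128), and -0.722 and -0.86 over choroid-rich and choroid-poor arrays (exact permutation p = 0.041 and 0.0333).

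**Figure D3:**
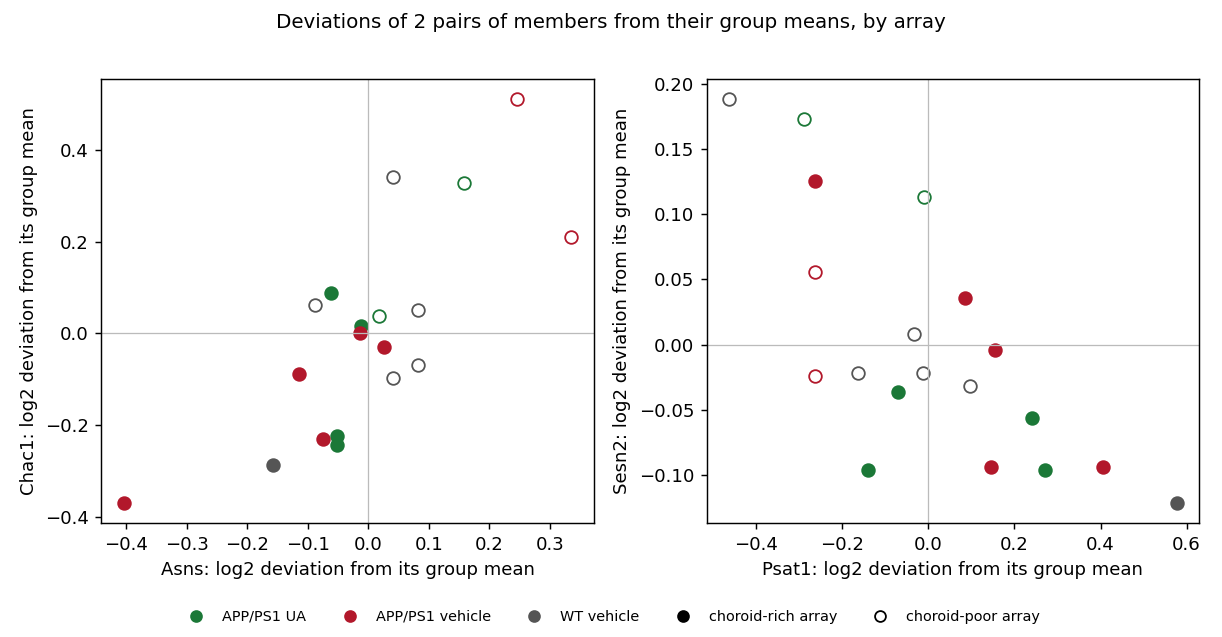
Deviation of each of 19 arrays from its group mean (log2) for Chac1 (y axis) against Asns (x axis) on the left and for Sesn2 against Psat1 on the right; colours give the groups, filled points choroid-rich and open points choroid-poor arrays. The left panel rises (r = 0.758) with the choroid-rich arrays at the lower left, and the right panel falls (r = -0.732).

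Asns and Chac1 also moved with markers of neurons and of choroid plexus. In the same permutation test over 30 relations of a member with the choroid plexus, neuron or astrocyte marker mean, 6 passed. None of the 6 was with the astrocyte markers, where Phgdh had r = 0.315 (permutation p = 0.244, adjusted 0.445). Other marker lists were not tested in this way. Asns followed the mean of 10 neuron markers with r = 0.832 (permutation p = 0.00044, adjusted 0.0066) and rho = 0.851 (permutation p = 5e-05, adjusted 0.0015). Chac1 did so with r = 0.728 (permutation p = 0.00194, adjusted 0.0145) and rho = 0.696 (permutation p = 0.00262, adjusted 0.019). Without the 2 arrays farthest in the neuron marker mean these values of r were 0.672 and 0.576. For Asns the neuron relation was 0.904 on slide 1 and 0.82 on slide 2 (exact permutation p = 0.00833 and 0.0319), and for Chac1 it was 0.242 and 0.842 (exact permutation p = 0.681 and 0.0306). Over choroid-rich arrays the neuron relation was 0.885 for Asns and 0.756 for Chac1 (exact permutation p = 0.0181 and 0.00382), and over choroid-poor arrays it was 0.683 and 0.343 (exact permutation p = 0.129 and 0.467). The Chac1 relation thus did not pass on slide 1, and neither relation passed over choroid-poor arrays. With so few arrays this does not show that they were absent. The neuron markers averaged 4.74 ± 0.10 in UA mice (n = 6), 4.65 ± 0.16 in vehicle APP/PS1 mice (n = 7) and 4.89 ± 0.09 in WT mice (SD, n = 6), with ranges of 4.66 to 4.94, 4.37 to 4.84 and 4.79 to 5.02.

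The other 4 relations that passed were with the choroid plexus markers, for Asns, Chac1, Psat1 and Phgdh. Since the arrays fall into separate clusters on these markers, r is given within each cluster. For Asns it was -0.801 over choroid-rich arrays (exact permutation p = 0.118) and -0.749 over choroid-poor arrays (exact permutation p = 0.0167). For Chac1 it was -0.473 and 0.232, for Psat1 0.00697 and 0.0419 and for Phgdh 0.23 and -0.331, and none of these 6 values passed. Asns ran from 4.32 to 4.88 on choroid-rich and from 4.85 to 5.12 on choroid-poor arrays, and Chac1 from 0.69 to 1.40 and from 1.19 to 1.64. Psat1 ran from 3.13 to 3.83 on choroid-rich and from 2.65 to 3.26 on choroid-poor arrays, and Phgdh from 3.91 to 4.25 and from 3.71 to 4.09. Tissue taken with the hippocampus and expression within it cannot be told apart from these values.

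**Figure D4:**
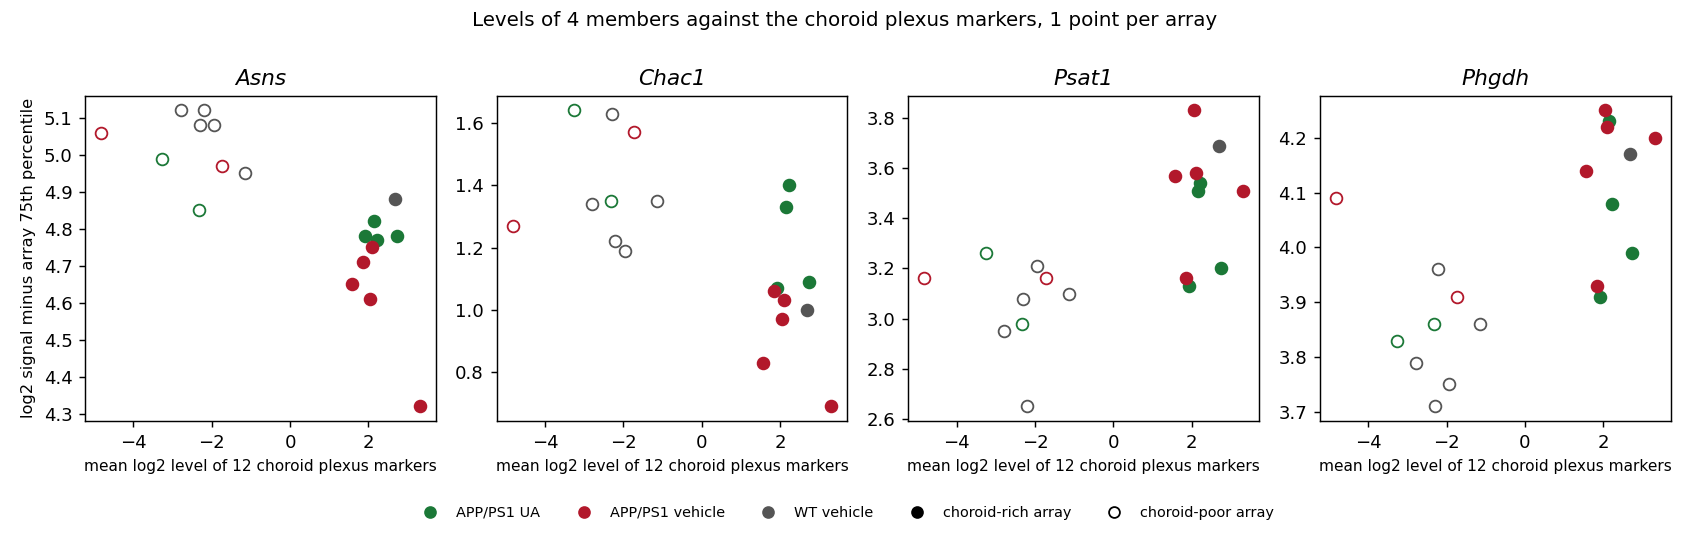
Levels of Asns, Chac1, Psat1 and Phgdh (y axes, log2 signal minus the array's 75th percentile) against the mean level of 12 choroid plexus markers (x axis, log2) on 19 arrays, coloured by group. The arrays form a choroid-rich cluster (filled) and a choroid-poor cluster (open), with Asns and Chac1 lower and Psat1 and Phgdh higher in the choroid-rich one, and 5 of 6 WT arrays are choroid-poor.

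The genes most like each member over the 19 arrays, among 14883 genes with a plain symbol, were ranked by Pearson r of their levels, group differences included. Asns was most like the neuronal tubulin Tubb3 (r = 0.957), which is also 1 of the neuron markers, then Fgf9 (0.944) and Sae1 (0.932). Chac1 was most like Dlat (0.861), Fam169a (0.848) and Zfp318 (0.847), and Atf4 most like Tuba4a (0.863), Atrx (0.811) and Hspa8 (0.808). Psat1 was most like Arhgap12 (0.962), Septin4 (0.924) and Ppp1r16b (0.919), and Phgdh most like Apeh (0.948), Metrn (0.933) and Vamp3 (0.92). Ddit4 was most like Krit1 (0.841), the immediate early gene Egr2 (0.781) and Chka (0.779). For Atf5 the nearest were Jph1 (0.955), Cenpx (0.94) and Lpcat3 (0.937), and for Ddit3 Txndc12 (0.855), Pfn1 (0.82) and Zbtb17 (0.805). The Atf5 values include vehicle replicate 3 at 1.89, where the next lowest vehicle array had 3.32, and r without that array is not given. The second Atf5 probe followed the first with r = 0.471. Trib3 was most like Tkt (0.789), Blnk (0.775) and Rnh1 (0.752), and Sesn2 most like Asnsd1 (0.801), Cog7 (0.794) and Macroh2a1 (0.792). No member was among the 3 genes most like another member.

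Genes upstream of ATF4 were counted from lists of the pathway. Of 9 genes for eIF2alpha kinases and their opposing phosphatase, 0 were higher (2.77% of all genes) and 1 was lower (2.28%) in vehicle APP/PS1 against WT mice. That gene was Ppp1cb, a catalytic subunit of protein phosphatase 1, with means of 3.99 in UA, 3.74 in vehicle APP/PS1 and 4.01 in WT mice. Ppp1cb fell by 0.28 (SE 0.07; limma adjusted p = 0.0308) in vehicle APP/PS1 against WT mice and was 0.26 (SE 0.07; limma adjusted p = 0.14) in UA against vehicle mice. With slide as a block the first was -0.22 (limma adjusted p = 0.295), and within choroid-poor arrays it was -0.39 (limma adjusted p = 0.374). It did not pass either within slide 1, with quantile normalization, without the filter on dim probes, from the deposited value table, or without vehicle replicate 6 or 7 or WT replicate 1, 2, 5 or 6. The UA against vehicle difference passed with normexp correction (limma adjusted p = 0.0388). Eif2ak2, the kinase that senses double-stranded RNA, was 0.33 (SE 0.10; limma adjusted p = 0.0548) in vehicle APP/PS1 against WT mice. Of 9 eIF2 and eIF2B subunits 0 passed in any comparison, the nearest in vehicle against WT mice being Eif2b2 at -0.14 (SE 0.06; limma adjusted p = 0.153).

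Of 11 measured partners and co-regulators 0 passed in any comparison in the main setting. Some genes of the lists passed in other settings, given at the end. In vehicle APP/PS1 against WT mice Atf3, a stress-induced factor, was 0.34 (SE 0.11; limma adjusted p = 0.0831) and the stress cytokine Gdf15 0.50 (SE 0.22; limma adjusted p = 0.183). Of 12 serine and one-carbon enzymes 0 passed, the nearest being Cbs at 0.31 (SE 0.11; limma adjusted p = 0.0987) and the astrocyte enzyme Aldh1l1 at 0.24 (SE 0.11; limma adjusted p = 0.200). Of 11 amino acid transporters 0 passed, with the arginine transporter Slc7a1 at -0.26 (SE 0.09; limma adjusted p = 0.0936) and the large neutral amino acid transporter Slc7a5 at -0.68 (SE 0.28; limma adjusted p = 0.158). 

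The 20 cytosolic tRNA synthetases, which charge tRNAs with amino acids, had 0 genes past the threshold, although 17 of 20 differences lay below 0 in vehicle APP/PS1 against WT mice, with a median of -0.12 against 0.01 over all genes. The nearest were Gars at -0.25 (SE 0.07; limma adjusted p = 0.0528) and Tars at -0.20 (SE 0.06; limma adjusted p = 0.0533). In UA against vehicle mice 14 of the 20 lay above 0, with a median of 0.05. In UA against WT mice 17 of the 20 lay below 0, with a median of -0.09. Over all genes 48.6% lay below 0 in vehicle against WT, 51.2% in UA against vehicle and 52.9% in UA against WT mice. Vehicle against WT and UA against vehicle share the vehicle arrays, so their opposite signs are not independent of each other. Of the neuron markers 9 of 10 lay below 0 in vehicle APP/PS1 against WT mice and 10 of 10 above 0 in UA against vehicle mice. In UA against WT mice 9 of 10 lay below 0. The part of the neuron markers in the synthetase values was not tested.

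Beside Ddit4 and Sesn2, 11 sestrin and mTORC1 regulators had 0 genes higher (2.77% of all genes) and 1 lower (2.28%) in vehicle APP/PS1 against WT mice. Castor2, of the family of arginine sensors upstream of mTORC1, averaged 4.21 in UA, 4.08 in vehicle APP/PS1 and 4.40 in WT mice and fell by 0.32 (SE 0.08; limma adjusted p = 0.0338) in vehicle APP/PS1 against WT mice. It was -0.25 (limma adjusted p = 0.329) with slide as a block and -0.32 (limma adjusted p = 0.431) within choroid-poor arrays. It also did not pass within slide 1, with normexp correction, with quantile normalization, without the filter on dim probes, or without vehicle replicate 1, 6 or 7 or WT replicate 2, 4 or 5. Of 16 genes of the XBP1 and ATF6 arms of the unfolded protein response 0 passed, with Dnajb9 at -0.17 (SE 0.07; limma adjusted p = 0.140) and Sel1l at -0.26 (SE 0.12; limma adjusted p = 0.191). Of 14 glucocorticoid-responsive genes, a group shown because glucocorticoids also induce Ddit4, 0 passed, with Fkbp5 at -0.25 (SE 0.09; limma adjusted p = 0.10) and Zbtb16 at -0.41 (SE 0.15; limma adjusted p = 0.104).

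In UA against vehicle APP/PS1 mice 0 genes of any of the 9 lists passed. The nearest after Ppp1cb were Zbtb16 at 0.43 (SE 0.15; limma adjusted p = 0.198) and the serine hydroxymethyltransferase Shmt1 at 0.65 (SE 0.22; limma adjusted p = 0.199), which was -0.04 with normexp correction. Next came Lars at 0.21 (limma adjusted p = 0.261), Lcn2 at -0.34 (0.269), Shmt2 at -0.13 (0.270) and Jund at 0.16 (0.271). Nearest in the list of XBP1 and ATF6 arms were Creld2 at -0.47 (SE 0.20; limma adjusted p = 0.277) and Sdf2l1 at -0.39 (SE 0.23; limma adjusted p = 0.409). In UA against WT mice 0 genes of the 9 lists passed either. The nearest were Aldh1l1 at 0.34 (SE 0.12; limma adjusted p = 0.428) and Eif2ak2 at 0.29 (SE 0.10; limma adjusted p = 0.439). The clock gene Per1 followed at -0.42 (SE 0.16; limma adjusted p = 0.479).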

How the data were processed

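RNA from 19 mouse hippocampi was measured on Agilent arrays, 1 sample per array. The deposited scanner files give the intensity of each spot, extracted with Agilent Feature Extraction 12.0.3.1 under a 2-colour protocol. Background subtraction and dye normalization within each array had been applied to this green intensity, per the file headers. No red sample is described in the labels, and red intensities were not read here. The deposited value table holds a score, which matched the log10 of the processed green signal centred and divided by its SD over each array to within 0.005, with column medians from -0.28 to -0.17.

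Control spots were left out (3671 of 62976), spots of a probe were averaged to 56605 probes, and log2 of the processed signal minus the array's 75th percentile was taken. Probes well above background on at least 6 arrays were kept (33454). Accessions were named through RefSeq genes of GRCm38.p6, and the brightest probe stood for a gene. limma 3.58.1 in R 4.3.3 fitted 3 group means over 19 arrays, after a test on simulated data. The number of arrays limits the precision.

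Promoters were searched for the letters given on both strands. Every member is named, with the 2 genes of smallest p in each pathway list, of which a part is printed, and the 3 genes most like each member. None of the genes used to read sex is named, and a sex-linked eIF2 subunit gene was left out of the named genes. The members and lists were chosen with earlier results of these data known. The alternatives were other background corrections, scalings, filters, probe rules, slide, sex, choroid plexus markers and replicate number as terms, and leaving out arrays. The files hold no mean green signal, so normexp (offset 50) used the median signal, without the dye normalization of the processed signal. Comparisons within choroid-rich or choroid-poor arrays were added after the data were seen.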

Additional observations from a re-analysis of the deposited data

Results flagged for a closer look

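In 3 of 30 sets of a member's values in a group, 1 array lay far from the others by Dixon's test, which chance does in about 1 of 20 sets. Atf5 was 1.89 in vehicle APP/PS1 replicate 3, where the next lowest vehicle array had 3.32. Atf5 was 2.74 in WT replicate 1, where the next lowest WT array had 3.34. On the second Atf5 probe the same arrays had 2.41, within the vehicle range of 2.34 to 2.95, and 2.60, within the WT range of 2.29 to 2.61. Asns was 4.99 in UA replicate 1, where the next highest UA array had 4.85. Both of these UA arrays are choroid-poor, and the cause was not tested.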

How the results depend on the processing

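Over the alternatives no member passed in UA against vehicle or in UA against WT mice. In vehicle APP/PS1 against WT mice 1 member passed with quantile normalization (Asns), 1 with sex as a covariate (Phgdh), and from 0 to 2 when arrays were left out in turn. Of 720 member differences recomputed, 687 kept their sign and their side of the threshold, 6 passed that had not, and 27 changed sign without passing in either setting. Of the pathway gene differences, 27 passed that had not, 26 no longer passed and 4 changed sign. Those newly passing in vehicle against WT mice were Rptor (lowest limma adjusted p = 0.0143), Tars (0.0162), Cbs (0.0192) and Atf3 (0.0239). Gars (0.0246), Slc7a1 (0.0283), Eif2ak2 (0.0305), Fkbp5 (0.0477) and Zbtb16 (0.0488) did so too. In UA against vehicle mice they were Ppp1cb (0.0388) and Batf2 (0.0465). The number of genes called in vehicle against WT mice, 1294, was 353 without a filter on dim probes, 804 from the deposited table, 77 with slide as a block, 1986 with sex as a covariate, 23 within slide 1, 20 within choroid-poor arrays, and from 391 to 2263 when arrays were left out in turn (2263 without WT replicate 3). In UA against vehicle mice 1621 genes were called with normexp correction, against 0 in the main setting (3954 at an unadjusted limma p under 0.05). The normexp setting starts from the median signal and so also lacks the dye normalization of the processed signal. The part of each change was not tested. In UA against WT mice, 23 genes became 14 with normexp correction, 4 with slide as a block and from 16 to 37 when arrays were left out. The pairs of members that passed by Pearson r, 2, became 0 within slide 1, within slide 2, within choroid-rich and within choroid-poor arrays, and 4 with quantile normalization. Within slide 2 and within choroid-poor arrays, the exact permutations are too few for 1 pair alone to pass over the 45 pairs. The counts of 0 there thus do not show that the relations were absent.

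The labels give replicate numbers but do not say that these pair the mice. Of 18 same-numbered pairs of arrays, 8 had a correlation of deviations over 0.1, with a range of -0.545 to 0.39. Arrays of unlike number were not compared, so these values cannot show whether the numbers pair the mice. With the replicate block 331 genes were called in vehicle against WT mice and 12 in UA against WT mice, with 0 members called. Ppp1cb and Castor2 did not pass there either (limma adjusted p = 0.0674 and 0.0967), and Atf5 was -0.0204 in vehicle against WT mice.

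The differences that changed sign, none of which passed in either setting, were the following. In vehicle against WT mice Atf5 was -0.0062 with sex as a covariate, -0.16 with choroid plexus markers as a covariate and -0.59 within choroid-poor arrays, where Chac1 was 0.0746 and Gdf15 -0.0349, and it ran from -0.0823 to 0.29 when arrays were left out. Sesn2 was 0.0045 there with the choroid plexus covariate and ran from -0.0596 to 0.0015 when arrays were left out. In UA against vehicle mice Atf4 was 0.13 with slide as a block and within slide 2 (-0.11 to 0.0035 when arrays were left out), Atf5 was -0.16 within choroid-rich arrays (-0.11 to 0.21 when arrays were left out), Sesn2 was -0.0128 within choroid-rich arrays, and Shmt1 was -0.0401 with normexp correction. In UA against WT mice with slide as a block, Ddit3 was 0.0891, Chac1 -0.0456, Sesn2 -0.0575, Nupr1 -0.0891 and Slc7a11 -0.24, and Atf5 was -0.0223 with the choroid plexus covariate. When arrays were left out Chac1 ran from -0.0391 to 0.0946 and Sesn2 from -0.0179 to 0.054. The cause of these changes was not tested. With 6 or 7 arrays per group, the SE of a member's difference was 0.07 to 0.25.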
